A study of Mus musculus with 12 samples.

Results

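The TCF/LEF factors (Tcf7, Lef1, Tcf7l1, Tcf7l2) and the Groucho corepressors (Tle1, Tle2, Tle3, Tle4 and Tle5, the last listed by the array under its older symbol Aes) were followed through 4 groups of mouse progenitor B cells that differed in Sox4. The members were chosen by name, and every array probe annotated with one of the 9 symbols or an older form of it was read. Of the 9 genes, 8 had probes, 29 of the 45281 on the array. No probe carried Tcf7, which was not analysed here.

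All cells were C57BL/6 fetal liver progenitors with a floxed Sox4 gene, and each group was read on 3 single-colour Illumina bead arrays. The loss experiment set Sox4fl/fl SE-Cre cells (called SE-Cre) against Sox4fl/fl cells without the recombinase. The gain experiment set cells labelled HA-Sox4 against cells labelled HA, and both of these carried Sox4fl/fl, SE-Cre and the oncogene p190 Bcr-Abl, which immortalized them. Since SE-Cre was always paired with the floxed gene, effects of the recombinase itself and of Sox4 loss cannot be told apart. The labels name no promoter or cell type for SE-Cre, and they do not say whether the immortalized cells were a clone or whether the 3 samples per group stem from different animals or cultures. The p-values therefore cover the spread between samples, which may be technical.

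TCF/LEF factors are HMG-box proteins, as Sox4 is, and carry out the transcriptional output of Wnt signalling. With β-catenin bound they activate their targets, and without it they recruit Groucho proteins, which bring in histone deacetylases and repress. Lef1 is known for its part in the growth of fetal B cell progenitors, and Tcf7l1 is known mainly as a repressor. Tle1 to Tle4 are full-length Groucho proteins, while Tle5 is a short relative without the WD40 repeats that can interfere with the others.

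Intensity on the loss arrays had medians between 83.4 and 90.2 and on the gain arrays between 115 and 139, and between 36.1% and 40.0% of probes were detected, that is, had a detection p-value under 0.05. Sox4 itself read 4.60, 4.65 and 4.27 (log2 normalized intensity) on the SE-Cre arrays, against 10.67, 10.55 and 10.60 on the Sox4fl/fl arrays. It read 5.96, 5.14 and 5.32 in HA-Sox4 cells, against 4.53, 5.004 and 4.51 on the HA arrays, none of which detected it. That rise, at least 1.18-fold (adjusted p = 0.0326), was past the threshold in 7 of 11 alternative settings and was lost without HA replicate 1 or 3 (adjusted p = 0.0892 and 0.0906). These Sox4 readings are of probe ILMN_2727116. The other Sox4 probe, ILMN_2893417, was detected on 2 Sox4fl/fl arrays only and averaged 4.73 in HA-Sox4 cells, against 4.80 in HA cells. Whether either probe reads the HA-Sox4 transcript was not analysed here. All 7 of the B lineage markers on the array were detected on every array, while Cd3e, Cd3d, Cd3g, the liver genes Alb, Afp, Ttr and Apoa1, and the erythroid gene Hba-a1 were detected on none. Other markers of non-B cells were detected. Lyz2 and Vim were on every array, Thy1 on every loss array and Nkg7 on every gain array. Klrd1, Klf1, Epor and others were on some arrays. In bulk RNA, fewer cells of a type and less RNA per cell cannot be told apart.

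The promoter sequences of Tcf7l2 and Tcf7l1, the TCF factors that were higher in HA-Sox4 cells, are shown first, because Sox4 and the TCF factors bind short AT-rich cores by the same type of domain. RefSeq (GRCm38.p6) gave 14 promoters for 8 of the members and none for Tle5. The 250 bases before each start were searched on both strands for 3 motifs: AACAAAG and AACAATG, cores bound by SOX proteins, and CTTTGAT, the TCF/LEF core. Among all 32851 RefSeq promoters of that length, 5.03% held AACAAAG, 3.29% held AACAATG and 3.21% held CTTTGAT. The share holding any of the 3 was not computed, so the member counts have no matching background and show no excess. Promoters of the same gene can overlap, as at Lef1. Of the 14 member promoters 12 held none of the 3 motifs, including that of Tcf7l1, and 2 held AACAATG or AACAAAG, both at Tcf7l2. Capitals mark the match, which lies on the reverse strand at both Tcf7l2 starts, and no match overlapped another. The first lies at chr19:55741560-55741809 (plus strand) with its match 103 bases before the start, the second at chr19:55895071-55895320 (plus strand) with its match 14 bases before the start, and the Tcf7l1 promoter at chr6:72789046-72789295 (minus strand). A match is a description of the letters, and no binding was measured in these samples.
Tcf7l2 first start: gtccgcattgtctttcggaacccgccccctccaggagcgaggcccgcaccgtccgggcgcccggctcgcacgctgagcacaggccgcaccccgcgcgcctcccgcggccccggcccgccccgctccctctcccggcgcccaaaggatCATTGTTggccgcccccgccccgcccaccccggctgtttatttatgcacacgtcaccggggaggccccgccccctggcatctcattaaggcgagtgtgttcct
Tcf7l2 second start: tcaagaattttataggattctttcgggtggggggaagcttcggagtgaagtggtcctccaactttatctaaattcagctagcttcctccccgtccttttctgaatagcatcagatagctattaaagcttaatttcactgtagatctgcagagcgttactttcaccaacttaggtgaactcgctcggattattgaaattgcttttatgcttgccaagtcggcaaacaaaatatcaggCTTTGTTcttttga
Tcf7l1: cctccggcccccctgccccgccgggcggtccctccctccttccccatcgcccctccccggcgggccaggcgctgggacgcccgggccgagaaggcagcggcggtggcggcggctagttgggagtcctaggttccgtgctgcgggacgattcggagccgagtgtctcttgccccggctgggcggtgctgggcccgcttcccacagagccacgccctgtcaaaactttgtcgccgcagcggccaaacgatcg

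In SE-Cre cells 3 of the 6 member genes that could be tested were lower, relative to Sox4fl/fl cells, and none was higher. These were Lef1, Tcf7l2 and Tle5, while Tle1, Tle3 and Tle4 did not pass the test. A probe was tested where at least 3 of the 6 arrays of its experiment detected it, and a gene was read by its brightest such probe. Called means an adjusted p-value under 0.05 over all probes tested. Of all 8944 genes tested 16.4% were called, 7.49% as higher and 8.93% as lower, so the members' 3 of 6 stood against that background. Groups did not overlap for 4 of the 6 members, against 35% of all genes. By probe, 6 of 15 member probes were called, all lower, against 15.3% of all probes in either direction, 6.98% higher and 8.31% lower. The direction of calls over all probes depended on the scaling: 45.6% of called probes were higher, and 32.4% were when arrays were scaled to a common median. Each of the 6 member probes stayed lower under every alternative in which it was tested.

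In HA-Sox4 cells 5 of the 7 member genes tested differed from HA cells. Tcf7l1, Tcf7l2, Tle3 and Tle5 were higher, Tle1 was lower, and Lef1 and Tle4 did not pass the test. The gain experiment called many more genes, 44.2% of 9249, with 21.3% higher and 22.8% lower. Groups did not overlap for 5 of the 7 members, against 57.9% of all genes. By probe, 11 of 17 member probes were called, 8 higher and 3 lower, against 41.2% of all probes, 18.6% higher and 22.6% lower. Higher probes were 45.2% of the calls, or 55.6% with arrays scaled to a common median. A difference of at least 2-fold was called in 4 of the 7 members, against 10.9% of all genes, and in 1 of 6 members in the loss experiment, against 4.75% of all genes. The probes of Tcf7l1 and Tle5 and Tcf7l2 ILMN_3006739 were detected on no HA array. They entered the gain counts only through the HA-Sox4 arrays, where they were high. With detection required on every array 6 member probes were called.

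**Figure D1:**
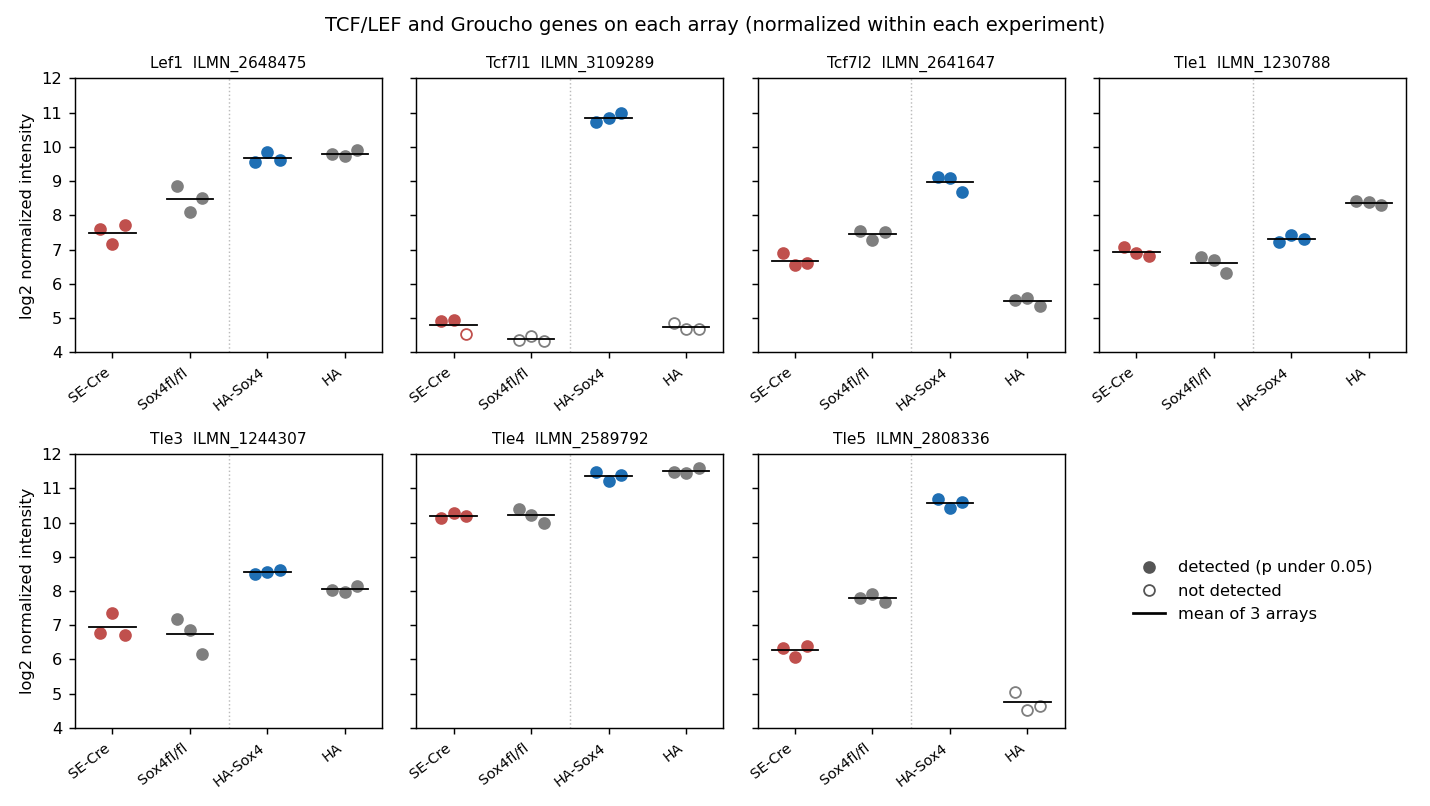
Log2 normalized intensity (y axis) of the brightest probe of each of 7 genes on every array, with SE-Cre and Sox4fl/fl left of the dotted line and HA-Sox4 and HA right of it; filled points were detected, open points were not, and bars are means of 3 arrays. Each experiment was normalized on its own, so levels are compared within it: the SE-Cre points of Tcf7l2 and Tle5 lie below the Sox4fl/fl points and their HA-Sox4 points above the HA points, and the HA-Sox4 points of Tcf7l1 lie far above its HA points.

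Lef1 was lower in SE-Cre cells, by about 2-fold, and did not differ detectably between HA-Sox4 and HA cells. Its brightest probe, ILMN_2648475, read 7.61, 7.17 and 7.71 on the SE-Cre arrays, against 8.85, 8.10 and 8.52 on the Sox4fl/fl arrays. The groups did not overlap, and the difference was -0.99 (SE 0.20, adjusted p = 0.00559). A second probe, ILMN_1239469, read 6.27, 6.15 and 6.51 in SE-Cre cells, against 7.14, 7.18 and 7.15 in Sox4fl/fl cells, a difference of -0.85 (SE 0.14, adjusted p = 0.00157). The 3 Sox4fl/fl arrays of this probe had an SD of only 0.02, and every SE-Cre array lay below them. The call of the second probe held in 15 of 15 alternative settings and that of the first in 14 of 15. Without background correction the differences were -0.78 for the first and -0.52 for the second.

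In the immortalized cells ILMN_2648475 read 9.57, 9.84 and 9.61 with HA-Sox4, against 9.78, 9.73 and 9.91 with HA, and the groups overlapped. The difference was -0.13 with a 95% interval of -0.38 to 0.11 (adjusted p = 0.354), so a change of the size seen in SE-Cre cells lay outside the interval. ILMN_1239469 differed by -0.02 (95% interval -0.27 to 0.23, adjusted p = 0.92). The dimmer Lef1 probe ILMN_1231087 was detected on all 6 gain arrays but on only 1 of the 6 loss arrays, a Sox4fl/fl one. It read 7.64, 7.70 and 7.85 in HA-Sox4 cells, against 7.57, 7.53 and 6.92 in HA cells, and the difference of 0.39 did not pass the test (adjusted p = 0.128, between 0.0405 and 0.276 over the alternatives). The fourth Lef1 probe was detected on no array.

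Tcf7l1 was near or below detection in 3 of the 4 groups and bright in HA-Sox4 cells. Probe ILMN_3109289 read 10.73, 10.86 and 10.99 in HA-Sox4 cells, against 4.86, 4.68 and 4.69 on the HA arrays, none of which detected it. The 3 HA-Sox4 values spread over a narrow range far above the HA arrays. Since the HA level is a bound, the rise was at least 49.3-fold (adjusted p = 1.23e-07). The size depends on the background correction: the fitted difference, read against the undetected HA level, was 6.11 with it and 3.96 without it. The second Tcf7l1 probe, ILMN_2771781, was much dimmer, with 5.65, 5.65 and 5.33 in HA-Sox4 cells, against 4.60, 4.63 and 4.81 in HA cells. Like the first, it was detected on all HA-Sox4 arrays and on no HA array, and it rose at least 1.24-fold (adjusted p = 0.00123). The 2 probes therefore gave the same direction and very different sizes, and where each lies in the transcript was not analysed here.

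In the loss experiment Tcf7l1 was not tested, as too few arrays detected it. ILMN_3109289 read 4.91, 4.93 and 4.55 in SE-Cre cells, of which the first 2 arrays detected it, and 4.36, 4.49 and 4.33 in Sox4fl/fl cells, of which none did. Neither Tcf7l1 probe was detected on any Sox4fl/fl array. How Tcf7l1 relates to the level of Sox4 was not tested.

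Tcf7l2 was lower in SE-Cre and higher in HA-Sox4 cells. Probe ILMN_2641647 read 6.89, 6.54 and 6.61 in SE-Cre cells, against 7.54, 7.27 and 7.52 in Sox4fl/fl cells, and the groups did not overlap. The fall was 1.70-fold (difference -0.76, SE 0.15, adjusted p = 0.00474; -0.51 without background correction) and held in 15 of 15 alternative settings. In HA-Sox4 cells the probe read 9.11, 9.09 and 8.69, against 5.52, 5.59 and 5.34 in HA cells, with all 6 arrays detected. That was an 11.2-fold rise (difference 3.48, SE 0.14, adjusted p = 3.17e-06), or 2.02 on the log2 scale without background correction.

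A second Tcf7l2 probe, ILMN_3006739, gave differences close to those of the first. It read 5.17, 5.60 and 4.79 in SE-Cre cells, against 6.18, 6.12 and 5.58 in Sox4fl/fl cells. Here SE-Cre replicate 2 reached the lowest Sox4fl/fl array, so the groups overlapped. The difference of -0.77 (SE 0.22, adjusted p = 0.0319) passed in only 7 of 15 alternative settings, with adjusted p-values up to 0.178. It was lost without Sox4fl/fl replicate 1 or 2 (adjusted p = 0.119 and 0.114) and without SE-Cre replicate 1 or 3 (adjusted p = 0.0793 and 0.115). In HA-Sox4 cells the probe read 8.17, 8.01 and 8.55, against 4.85, 4.76 and 5.02 on the HA arrays, none of which detected it, a rise of at least 8.07-fold (adjusted p = 5.6e-06). The other 4 Tcf7l2 probes were detected on none of the 12 arrays.

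**Figure D2:**
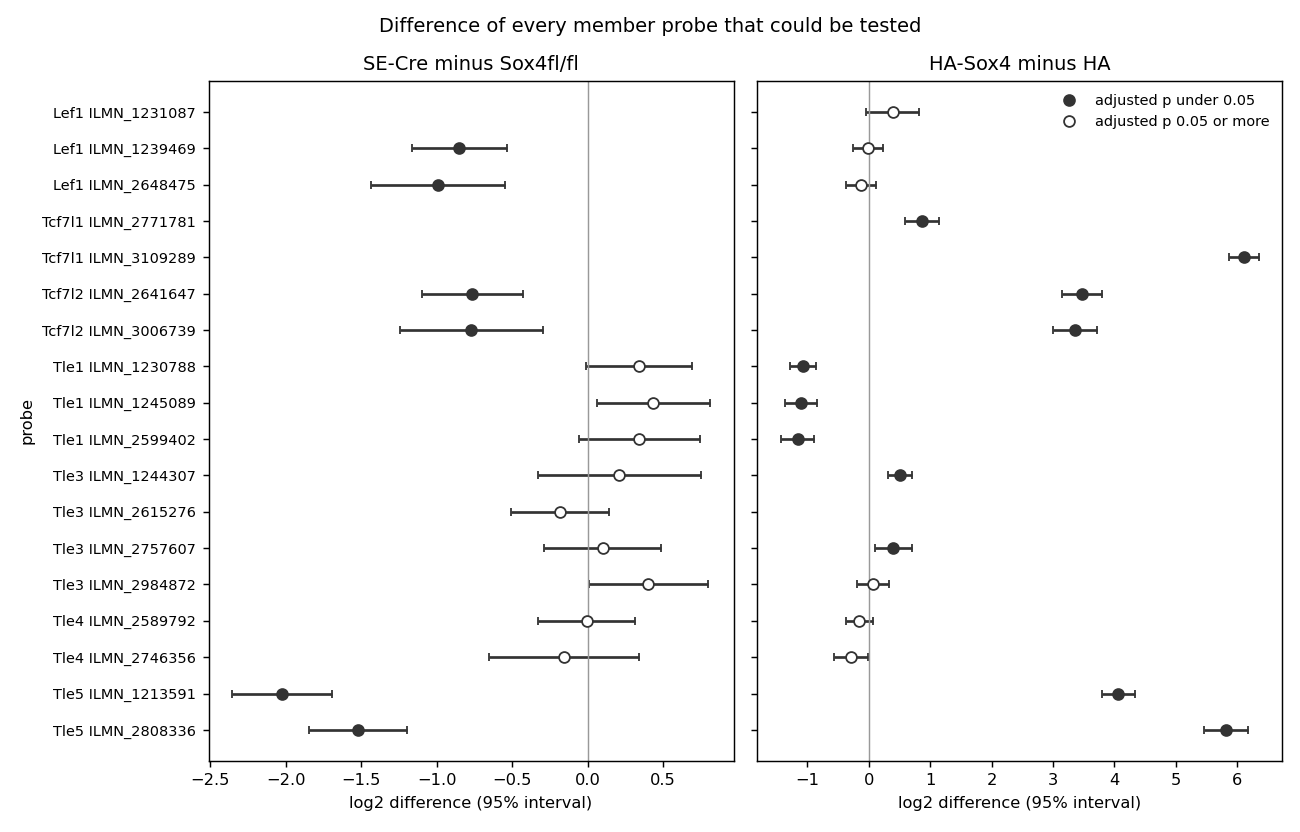
Log2 difference of each tested member probe (rows) with its 95% interval, SE-Cre minus Sox4fl/fl on the left and HA-Sox4 minus HA on the right, on axes of different range; filled points passed the adjusted threshold. Lef1, Tcf7l2 and Tle5 probes lie left of 0 in the loss panel, and in the gain panel Tcf7l1, Tcf7l2 and Tle5 lie right of 0, the 3 Tle1 probes lie near -1 and the brighter Tle4 probe lies near 0.

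Among the full-length Groucho genes Tle1 and Tle3 passed the test in the gain experiment and none passed in the loss experiment. Tle1, a corepressor recruited by TCF, HES and RUNX proteins, was lower in HA-Sox4 cells by about 2-fold with each of its 3 tested probes. ILMN_1230788 read 7.21, 7.41 and 7.30 in HA-Sox4 cells, against 8.43, 8.39 and 8.31 in HA cells, a difference of -1.07 (SE 0.09, adjusted p = 0.000113). ILMN_1245089 differed by -1.10 and ILMN_2599402 by -1.16, and all 3 calls held in 15 of 15 alternative settings. Without background correction the 3 differences were smaller, at -0.73, -0.42 and -0.51. In SE-Cre cells the same 3 probes differed by 0.34, 0.43 and 0.34 from Sox4fl/fl cells, with adjusted p-values of 0.193, 0.118 and 0.255. None passed, although the mean of the 3 probes did (difference 0.37, adjusted p = 0.0372), as did ILMN_1245089 without SE-Cre replicate 2 (adjusted p = 0.034) and ILMN_2599402 without SE-Cre replicate 1 (adjusted p = 0.0388).

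Tle3 was slightly higher in HA-Sox4 cells. ILMN_1244307 read 8.49, 8.56 and 8.61 there, against 8.02, 7.97 and 8.14 in HA cells, with no overlap and a 1.42-fold difference (0.51, SE 0.09, adjusted p = 0.00325) that held in 15 of 15 alternative settings. The other probes disagreed in part: ILMN_2757607 differed by 0.40 (adjusted p = 0.0405) and ILMN_2984872 by 0.07 (adjusted p = 0.655). The call of ILMN_2757607 held in only 6 of 15 settings and was lost without HA replicate 1 or 3 (adjusted p = 0.102 and 0.0756) or HA-Sox4 replicate 1 or 3 (adjusted p = 0.0906 and 0.117, the highest over the settings). The mean of the 3 Tle3 probes differed by 0.32 (adjusted p = 0.0151). In SE-Cre cells ILMN_1244307 read 6.78, 7.35 and 6.71, against 7.19, 6.87 and 6.16 in Sox4fl/fl cells. These groups overlapped widely, and the 95% interval of the difference ran from -0.33 to 0.75.

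Tle4, known as a partner of the B lineage factor Pax5, was bright and near level in both experiments. ILMN_2589792 read 10.13, 10.27 and 10.20 in SE-Cre cells, against 10.39, 10.23 and 10.001 in Sox4fl/fl cells, a difference of -0.01 (95% interval -0.33 to 0.32). In HA-Sox4 cells it read 11.46, 11.22 and 11.38, against 11.49, 11.44 and 11.59 in HA cells, a difference of -0.15 (95% interval -0.38 to 0.07, adjusted p = 0.244). Differences of more than about 0.38 in either direction lay outside both intervals. The mean of its 2 tested probes, of which ILMN_2746356 was dim, was lower in HA-Sox4 cells by a small amount (difference -0.22, adjusted p = 0.0485).

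Tle2 was detected on 1 of the 12 arrays, HA-Sox4 replicate 2, where ILMN_1250103 read 5.59. The same probe read 4.60 and 4.70 on the other HA-Sox4 arrays and between 4.67 and 4.82 on the HA arrays. Tle2 was tested in neither experiment.

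Tle5, the short Groucho relative, moved furthest of the corepressors, and in opposite directions in the 2 comparisons. ILMN_2808336 read 6.32, 6.08 and 6.41 in SE-Cre cells, against 7.78, 7.92 and 7.67 in Sox4fl/fl cells, a 2.87-fold fall (difference -1.52, SE 0.15, adjusted p = 1.67e-05). ILMN_1213591 read 4.90, 5.16 and 4.80 in SE-Cre cells, against 7.08, 7.04 and 6.82 in Sox4fl/fl cells, a 4.06-fold fall (difference -2.02, SE 0.15, adjusted p = 1.78e-06). Both probes separated the groups by more than 1 log2 unit, and both calls held in 15 of 15 alternative settings. Without background correction the differences were -0.998 with ILMN_2808336 and -0.97 with ILMN_1213591.

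In HA-Sox4 cells ILMN_2808336 read 10.67, 10.41 and 10.61, against 5.06, 4.52 and 4.65 in HA cells. ILMN_1213591 read 8.28, 8.68 and 8.42, against 4.38, 4.39 and 4.41. Neither probe was detected on any HA array, and both were on all HA-Sox4 arrays. The rises were at least 40.3-fold for ILMN_2808336 (adjusted p = 4.98e-07) and at least 9.33-fold for ILMN_1213591 (adjusted p = 6.51e-07). The fitted difference of ILMN_2808336, read against the undetected HA level, was 5.82 with background correction and 3.70 without it.

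Tcf7l2 and Tle5 were thus the members called in both experiments, each lower in SE-Cre and higher in HA-Sox4 cells. Of the 8278 genes tested in both, 11.4% were called in both, 5.56% in this combination and 3.71% in the reverse one. The experiments share no arrays. When all 12 arrays were normalized together and fitted in a single model, the HA-Sox4 minus HA difference and the Sox4fl/fl minus SE-Cre difference could be set against each other. For Tcf7l2 (ILMN_2641647) they were 3.34 and 0.76, and the difference between them was 2.59 (SE 0.21, adjusted p = 1.29e-06). For Tle5 the fitted values were 5.52 and 1.52 with ILMN_2808336 (difference between them 4.005, adjusted p = 1.45e-08) and 3.69 and 2.19 with ILMN_1213591 (1.498, adjusted p = 0.000175). No HA array detected either Tle5 probe, so the HA-Sox4 minus HA values and the differences between experiments are read against background and are not measured sizes. Of 18 member probes tested in this way 9 differed between experiments, against 17.6% of all 19663 probes, 8.95% with a larger HA-Sox4 minus HA difference and 8.63% with a smaller one. Immortalization, the array experiment and the brighter gain arrays cannot be told apart as sources of a difference in size.

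**Figure D3:**
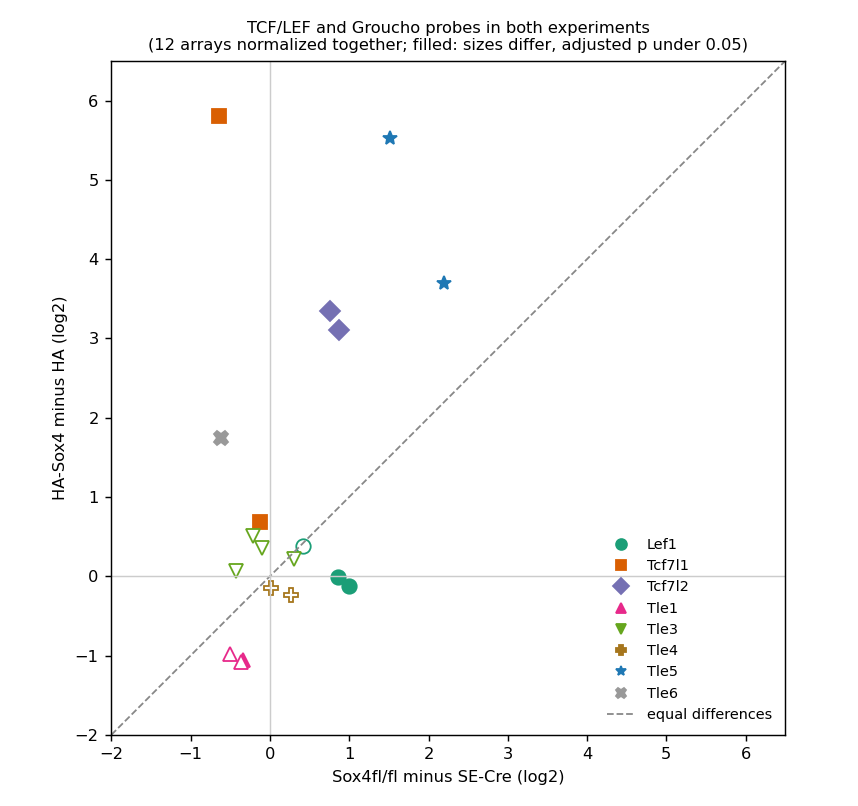
HA-Sox4 minus HA (y axis, log2) against Sox4fl/fl minus SE-Cre (x axis, log2) for each member probe and for the Groucho-related gene Tle6, with 12 arrays normalized together; the dashed line marks equal differences, and filled symbols differ between experiments at an adjusted p under 0.05. Tcf7l2 and Tle5 lie above the line with both differences positive, 2 of the Lef1 probes lie close to the x axis near 1, and both Tcf7l1 probes have x values below 0, with ILMN_3109289 high on the y axis; the HA level of Tcf7l1 and Tle5 was not detected.

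The levels in the joint normalization show where the size of the Tcf7l2 and Tle5 differences lay. Tcf7l2 (ILMN_2641647) averaged 8.49 ± 0.24 (SD, n = 3 for each group) in HA-Sox4 cells, against 5.15 ± 0.10 in HA cells, and 7.41 ± 0.19 in SE-Cre cells, against 8.16 ± 0.14 in Sox4fl/fl cells. The arrays of the highest groups, HA-Sox4 and Sox4fl/fl, overlapped, while SE-Cre arrays stood below both and HA arrays below SE-Cre. Tle5 (ILMN_2808336) averaged 10.08 ± 0.14 in HA-Sox4, against 4.56 ± 0.22 in HA cells, where it was undetected, and 6.99 ± 0.17 in SE-Cre, against 8.51 ± 0.12 in Sox4fl/fl cells. In order of level HA-Sox4 came first, then Sox4fl/fl, SE-Cre and HA, with no overlap between neighbours. With ILMN_1213591 the order was the same, but HA-Sox4 cells at 7.98 ± 0.20 and Sox4fl/fl cells at 7.71 ± 0.14 overlapped. The HA cells thus had the lowest reading of both genes although HA and SE-Cre cells share the Sox4fl/fl SE-Cre genotype; the order across experiments is a description without a test.

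The other members kept other orders. Lef1 (ILMN_2648475) averaged 9.19 ± 0.14 in HA-Sox4, against 9.32 ± 0.09 in HA cells, and 8.22 ± 0.28 in SE-Cre, against 9.22 ± 0.39 in Sox4fl/fl cells. With this probe SE-Cre cells stood below 3 groups that overlapped. ILMN_1239469 instead set Sox4fl/fl cells (7.89) above the other groups, which overlapped (7.03 in SE-Cre, 7.13 in HA and 7.12 in HA-Sox4 cells). ILMN_1231087 averaged 7.25 in HA-Sox4 and 6.86 in HA cells. It was mostly undetected in the loss experiment, at 4.84 in Sox4fl/fl and 4.42 in SE-Cre cells. Tle1 (ILMN_1230788) averaged 6.83 ± 0.10 in HA-Sox4, against 7.89 ± 0.06 in HA cells, and 7.66 ± 0.13 in SE-Cre, against 7.32 ± 0.25 in Sox4fl/fl cells. With this probe neighbours in level did not overlap. The SE-Cre arrays of ILMN_2599402 overlapped HA and Sox4fl/fl arrays, and those of ILMN_1245089 overlapped HA arrays. With Tle3 ILMN_1244307 the HA-Sox4 arrays lay above all HA and all Sox4fl/fl arrays and overlapped SE-Cre. The other groups of this probe overlapped, and its group means lay between 7.46 and 8.07. The other Tle3 probes gave another order. HA-Sox4 cells averaged 5.83 with ILMN_2757607, below Sox4fl/fl (6.41) and SE-Cre cells (6.52). With ILMN_2984872 they averaged 5.53, below Sox4fl/fl (6.24) and SE-Cre cells (6.67). ILMN_2615276 was undetected in HA-Sox4 cells (4.68) and averaged 5.23 in Sox4fl/fl and 4.93 in SE-Cre cells. All 4 groups of Tle4 ILMN_2589792 overlapped, with means between 10.86 and 11.01. Without background correction the brightest probe of each of the 7 genes kept the same highest group. In the joint normalization some other probes of Lef1, Tle1, Tle3 and Tle4 had a different highest group.

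The genes whose 12-array pattern was most like that of the 2 members called in both experiments were found by Pearson correlation, each value centred on the mean of its experiment, among 10259 genes. For Tcf7l2 they were Map7 (r = 0.997), Zyx (r = 0.995) and Ppic (r = 0.993), and for Tle5 they were Gja1, Zyx (r = 0.996 each) and 1700025G04Rik (r = 0.995). These are values over 12 arrays in which the same group differences recur, with no test.

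The partners of the TCF/LEF factors on β-catenin were followed as a list of 18 genes, all on the array. In SE-Cre cells 3 of 13 tested were lower, none was higher and 10 were not called (23.1% called, against 16.4% of all genes), with a median difference of -0.03, against 0.02 over all genes. The 3 were Bcl9, the adaptor that links β-catenin to Pygo proteins (difference -1.37, adjusted p = 9.17e-05), Hipk2, a kinase that phosphorylates TCF factors (-1.25, adjusted p = 0.000128), and Ctnnbip1, an inhibitor of the β-catenin and TCF contact (-1.10, adjusted p = 0.000283). In HA-Sox4 cells 4 of 14 were higher, 2 were lower and 8 were not called, a share of 42.9% called that was near the 44.2% of all genes, with a median of 0.10, against -0.05 over all genes. The same 3 genes were higher there: Hipk2 by 3.72 (adjusted p = 3.23e-07), Ctnnbip1 by 3.16 (adjusted p = 9.79e-06) and Bcl9 by 2.18 (adjusted p = 2.27e-06). Each of these 6 calls held in 15 of 15 alternative settings, which were applied to the list genes after their values had been seen. With the mean of its probes Hipk2 differed by -0.60 in SE-Cre and 2.18 in HA-Sox4 cells, and without background correction Ctnnbip1 differed by -0.47 and 1.94. Kpna2, an importin that carries cargo into the nucleus, was lower (-0.44, adjusted p = 0.00471). Ctnnb1, the gene of β-catenin, differed by -0.13 in SE-Cre cells (adjusted p = 0.627) and by 0.25 in HA-Sox4 cells (adjusted p = 0.0615).

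Of 20 Wnt and β-catenin target genes 19 were on the array. The canonical feedback targets Axin2, Nkd1, Rnf43, Znrf3 and Notum, together with Sp5 and Dkk1, were detected on none of the 12 arrays. In SE-Cre cells 3 of 10 tested targets were lower, 1 was higher and 6 were not called, against 8.93% of all genes lower and 7.49% higher, with a median of 0.27, against 0.02 over all genes. Tnfrsf19, a receptor gene of the tumour necrosis factor family, fell at least 9.71-fold to below detection in SE-Cre cells (adjusted p = 8.76e-09). That bound depends on the background correction, without which the log2 difference was -1.81. Nkd2, an antagonist of Dishevelled, was lower by a difference of -0.74 (adjusted p = 0.0104). The call of Lgr5, a stem cell receptor gene (-0.82, adjusted p = 0.0233), held in 7 of 14 settings. Leaving out Sox4fl/fl replicate 1, Sox4fl/fl replicate 2 or SE-Cre replicate 3 ended it (adjusted p = 0.0828, 0.073 and 0.0504; up to 0.149 over the settings). The call of Sox9, a SoxE factor that was higher (0.58, adjusted p = 0.013), held in 11 of 15, and leaving out Sox4fl/fl replicate 2 ended it (adjusted p = 0.0615; up to 0.103 over the settings).

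In HA-Sox4 cells 2 of 8 tested targets were higher, 4 were lower and 2 were not called, against 21.3% of all genes higher and 22.8% lower, with a median of -0.47, against -0.05 over all genes. Nkd2 was higher by 2.97 (adjusted p = 1.12e-06) and the Wnt receptor Fzd7 by 1.46 (adjusted p = 0.000911). The adhesion receptor Cd44 was lower by a difference of -0.73 (adjusted p = 0.00037), and Myc by a difference of -0.67 (adjusted p = 0.000612). The target list therefore had members on both sides, and Nkd2 was its gene called in both experiments.

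**Figure D4:**
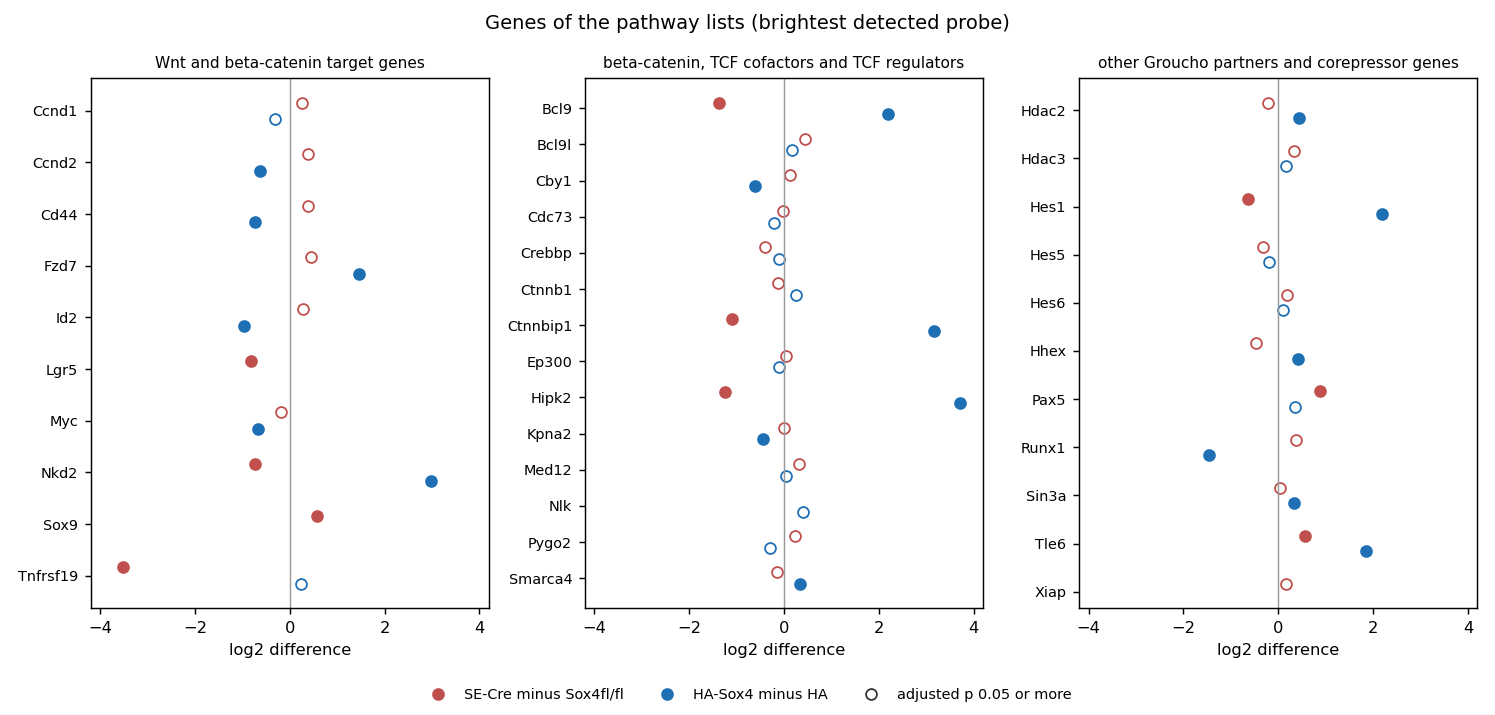
Log2 difference (x axis) of each tested gene of the 3 pathway lists (rows), SE-Cre minus Sox4fl/fl in red and HA-Sox4 minus HA in blue; filled points passed the adjusted threshold. Bcl9, Ctnnbip1, Hipk2, Nkd2 and Hes1 have filled points on opposite sides of 0, lower in SE-Cre and higher in HA-Sox4 cells.

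Other DNA-binding partners of Groucho and other corepressor genes made a list of 21, of which 15 were on the array. In SE-Cre cells 2 of 11 tested were higher, 1 was lower and 8 were not called (27.3% called, against 16.4% of all genes), with a median of 0.17, against 0.02 over all genes. Pax5, the B lineage commitment factor, was higher by at least 1.63-fold (adjusted p = 0.0024), since no Sox4fl/fl array detected its probe. Without background correction its log2 difference was only 0.30. Hes1, a Notch target and Groucho-dependent repressor, was lower (-0.64, adjusted p = 0.0331), a call that held in 9 of 15 settings. It was lost without Sox4fl/fl replicate 1 or 3 (adjusted p = 0.0707 and 0.133, the highest over the settings) or SE-Cre replicate 2 or 3 (adjusted p = 0.0827 and 0.113). Tle6, a Groucho-related gene, was higher (0.56, adjusted p = 0.043), but only 4 of 15 settings kept that call, and it was lost without Sox4fl/fl replicate 1 or 2 (adjusted p = 0.176, the highest over the settings, and 0.0573) or any SE-Cre replicate (adjusted p between 0.0795 and 0.102).

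In HA-Sox4 cells 5 of 10 were higher, 1 was lower and 4 were not called, against 21.3% of all genes higher and 22.8% lower, with a median of 0.35, against -0.05 over all genes. Hes1 was higher by 2.18 (adjusted p = 5.31e-06) and Tle6 by 1.86 (adjusted p = 3.47e-05). The haematopoietic factor Runx1 was lower by a difference of -1.47 (adjusted p = 8.83e-05), and the histone deacetylase gene Hdac2 was higher by 0.44 (adjusted p = 0.00617), a call lost when arrays were scaled to a common median (adjusted p = 0.0714).

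Markers of other cells moved with the same groups. Lyz2, a lysozyme gene of myeloid cells, was higher in SE-Cre cells by 1.97 (adjusted p = 2.58e-06) and lower in HA-Sox4 cells by a difference of -2.52 (adjusted p = 4.47e-05), the opposite of Tcf7l2 and Tle5. The summed linear level of the 6 myeloid markers on the array ran from 330 to 456 on SE-Cre arrays, against 182 to 233 on Sox4fl/fl arrays, and from 159 to 188 on HA-Sox4 arrays, against 395 to 453 on HA arrays. The granulocyte and macrophage genes Elane, Itgam and Adgre1 were detected on no array and Mpo on 1 SE-Cre array. The macrophage receptor gene Csf1r was detected on 2 SE-Cre arrays and 1 Sox4fl/fl array and differed by 0.22 (adjusted p = 0.376). Their part in the members' differences was not tested.

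For the 11 T and NK markers the sums ran from 480 to 595 on SE-Cre arrays, against 529 to 588 on Sox4fl/fl arrays, and from 372 to 405 on HA-Sox4 arrays, against 256 to 276 on HA arrays. The NK receptor gene Klrd1 was lower in SE-Cre cells by a difference of -1.74 (adjusted p = 2.26e-05), while Thy1, the other T and NK marker tested there, differed by 0.47 (adjusted p = 0.0861). The granule gene Nkg7 was higher in HA-Sox4 cells by 2.17 (adjusted p = 3.4e-05). For the 8 hepatocyte and stromal markers the sums ran from 753 to 1105 on SE-Cre arrays, against 1560 to 1826 on Sox4fl/fl arrays, and from 788 to 980 on HA-Sox4 arrays, against 831 to 948 on HA arrays. Vim, a filament gene not confined to stroma, was the only one of the 8 tested and was lower in SE-Cre cells by a difference of -1.11 (adjusted p = 0.00135). The part of these markers in the members' differences was not tested.

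For the 5 erythroid markers the sums ran from 110 to 144 on SE-Cre arrays, against 118 to 145 on Sox4fl/fl arrays, and from 114 to 117 on HA-Sox4 arrays, against 123 to 138 on HA arrays, and none was called. For the 7 B lineage markers they ran from 44924 to 49783 on SE-Cre arrays, against 47698 to 49784 on Sox4fl/fl arrays, and from 43219 to 44290 on HA-Sox4 arrays, against 39071 to 43630 on HA arrays. The recombinase gene Rag1 was lower in SE-Cre cells by a difference of -3.47 (adjusted p = 5.2e-07) and higher in HA-Sox4 cells by 4.23 (adjusted p = 2.11e-06), and the signalling adaptor gene Blnk was lower in SE-Cre cells by a difference of -0.70 (adjusted p = 0.03) and higher in HA-Sox4 cells by 1.29 (adjusted p = 0.000466). Ebf1 was lower in SE-Cre cells by a difference of -0.49 (adjusted p = 0.0286), and Cd24a was higher in HA-Sox4 cells by 0.55 (adjusted p = 0.0196). The SE-Cre calls of Blnk and Ebf1 each held in 10 of 15 settings. Leaving out Sox4fl/fl replicate 1, Sox4fl/fl replicate 2 or SE-Cre replicate 1 ended the first (adjusted p up to 0.118), leaving out any Sox4fl/fl replicate or SE-Cre replicate 2 or 3 ended the second (adjusted p up to 0.109), and leaving out HA replicate 2 ended that of Cd24a (adjusted p = 0.0586). The surrogate light chain genes Vpreb1 and Igll1 and the receptor gene Cd79b were called in neither experiment.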

How the data were processed

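RNA of 12 progenitor B cell samples, 3 in each of 4 groups, was read on Illumina mouse bead arrays. The authors deposited non-normalized intensities and, per the file headers, a detection p-value for each intensity. Their deposited processed intensities were quantile-normalized within each experiment, judged by their values. The submitters' processing notes name R 3.0.1, with no role; scanner software is not given in the sources used here.

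The experiments were normalized separately with neqc (limma 3.58.1, R 4.3.3): normexp background correction from controls estimated through the detection p-values, an offset of 16, quantile normalization and log2. Probes detected (p-value under 0.05) on at least 3 arrays were kept: 16454 for loss, 17504 for gain and 19663 for the 12 arrays together. Group differences came from limma (lmFit, eBayes) with Benjamini-Hochberg adjustment over all kept probes. Where a whole group was undetected, the fold is a lower bound under this background correction: its values were raised to the lowest signal of a detected probe on the same array. It is no bound on differences without that correction. The arrays per group limit the precision; the median residual SD was 0.19 (loss) and 0.14 (gain), and dim probes are limited further by background. On simulated intensities 78% (loss) and 77% (gain) of 2-fold changes and 94% and 98% of 4-fold changes were recovered. For the difference between experiments 46% and 91% were. Only 100 probes were changed at each fold, a far smaller share than was called in the data. These rates are therefore not the power of the reported tests.

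Probes were named through the platform annotation, updated by gene ID. Named are every member probe, Sox4, up to 4 genes per pathway list and experiment with the smallest p, called markers of the 5 cell type lists, and the genes most like members called in both experiments. The members and lists were chosen with earlier results of these data known. The alternatives were no background correction, the processed intensities, other detection filters, joint normalization, common-median scaling, trended and robust variance, weighted arrays, a replicate block, leaving out each array and the mean of a gene's probes. Applying them to the list genes was added after seeing the data.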

Additional observations from a re-analysis of the deposited data

Results flagged for a closer look

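These results differed in size between the gain comparison (HA-Sox4 minus HA) and the loss comparison turned the same way (Sox4fl/fl minus SE-Cre), by a test of the difference itself with limma over all 12 arrays. Positive values mean a larger HA-Sox4 minus HA difference. Both Tcf7l1 probes, both Tle5 probes and Tcf7l2 ILMN_3006739 were undetected on every HA array, and Tcf7l1 also on every Sox4fl/fl array, so their values are fitted against background and are not measured sizes. Immortalization and array experiment cannot be told apart here.

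For Tcf7l1 the difference was 6.46 (adjusted p = 6.54e-10) with ILMN_3109289 and 0.81 (adjusted p = 0.00623) with ILMN_2771781. In the joint fit ILMN_3109289 differed by 5.81 between HA-Sox4 and HA cells, while the Sox4fl/fl minus SE-Cre difference was -0.65. For Tcf7l2 it was 2.59 with ILMN_2641647 and 2.22 (adjusted p = 0.000403) with ILMN_3006739, and for Tle5 it was 4.005 with ILMN_2808336 and 1.498 with ILMN_1213591. With each of these 4 probes of Tcf7l2 and Tle5 both differences were positive.

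Lef1 differed by -1.13 (adjusted p = 0.0097) with ILMN_2648475 and by -0.87 (adjusted p = 0.00334) with ILMN_1239469, its Sox4fl/fl minus SE-Cre differences being the larger ones. Tle1 differed by -0.72 (adjusted p = 0.0191) with ILMN_1230788, a call lost without HA-Sox4 replicate 1 (adjusted p = 0.0522, the only one of 17 settings without the call). The other tested Tle1 probes did not pass (ILMN_1245089 adjusted p = 0.175, or 0.0301 without SE-Cre replicate 1; ILMN_2599402 adjusted p = 0.0699, or 0.0431 and 0.0391 without SE-Cre replicate 2 and 3).

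Tle6, related to the Groucho genes, differed by 2.36 (adjusted p = 1.06e-05). Like Tcf7l1 it had opposite signs: 1.74 for HA-Sox4 minus HA and -0.62 for Sox4fl/fl minus SE-Cre, the second of which rests on a call that most settings lost.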

How the results depend on the processing

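Of the member probes called in the loss experiment, the calls of Tle5, Lef1 ILMN_1239469 and Tcf7l2 ILMN_2641647 held in all 15 alternatives, and that of Lef1 ILMN_2648475 in all but the one without a detection filter (adjusted p = 0.0604). In the gain experiment the calls of Tcf7l1, Tcf7l2, Tle1, Tle5 and Tle3 ILMN_1244307 held wherever they were tested. The numbers of member probes called were 6 (loss), 11 (gain) and 9 (difference between experiments). With detection required on every array the last 2 became 6 and 4, because probes undetected in HA cells were then not tested. For the same reason the gain count ran from 5 to 11 with an array left out (5, 6 and 5 without HA-Sox4 replicate 1, 2 and 3). Over all probes 2516 were called in the loss experiment and between 1536 and 1996 with an array left out (1590, 1536 and 1612 without Sox4fl/fl replicate 1, 2 and 3). With the mean of a gene's probes, 2 Groucho genes (Tle5 and Tle1) in place of 1 and 5 other Groucho partners (Hhex and Hdac2 added) in place of 3 were called in the loss experiment.

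Same-numbered samples showed no sign of deviating together (correlations from -0.02 to 0.04). With 3 samples per group this check cannot show that the samples were unpaired. With the replicate block 2387, 6448 and 3229 probes and 6, 10 and 9 member probes were called in the loss and gain experiments and in the difference between them, against 2516, 7218 and 3456 probes without it. The block ended the gain calls of Sox4 (adjusted p = 0.0614) and Tle3 ILMN_2757607 (adjusted p = 0.0672) and no other call of a member probe, Sox4 or Tle6.

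Signs turned for uncalled probes near 0 in these alternatives. Common-median scaling gave -0.012 for Tle3 ILMN_2757607 (loss) and 0.084 for Lef1 ILMN_1239469 (gain). In the difference between experiments Lef1 ILMN_1231087 became 0.059 without background correction and 0.13 with the processed intensities, and Tle3 ILMN_2615276 became 0.0089 and 0.065. With an array left out, loss values ran from -0.082 to 0.44 for Tle3 ILMN_1244307, from -0.036 to 0.31 for ILMN_2757607, from -0.11 to 0.085 for Tle4 ILMN_2589792 and from -0.31 to 0.040 for ILMN_2746356. Gain values ran from -0.10 to 0.037 for Lef1 ILMN_1239469 and from -0.011 to 0.14 for Tle3 ILMN_2984872. Differences between experiments ran from -0.24 to 0.11 for Lef1 ILMN_1231087 and from -0.22 to 0.088 for Tle3 ILMN_2615276.

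Without background correction the fitted gain differences of Tcf7l1, Tcf7l2 and Tle5 were 3.96, 2.02 and 3.70 with their brightest probes (the HA level of Tcf7l1 and Tle5 being undetected). For list and marker genes they were -0.77 for Klrd1, 1.27 for Lyz2 and -2.26 for Rag1 (loss) and 0.67 for Fzd7, -1.56 for Lyz2, -0.42 for Myc, 1.91 for Nkd2, 1.09 for Nkg7 and 0.88 for Tle6 (gain), and the causes of these shifts were not tested. Signal over background limits Tcf7l1 ILMN_2771781, Tle2 and Tle4 ILMN_2746356.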
